A study of Mus musculus with 4 samples.

Results

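Fatty acid and glycerolipid synthesis was followed through 37 genes in the spleens of 2 leukemic mice and 2 wild type mice. The 37 genes were named with earlier results of the same arrays known, so their counts below describe the set, and 35 of them were measured among 19297 genes in all. A gene was taken as measured where a probe set carried its symbol alone. Acaca and Me1 had a pair of such sets each, and the one brighter on average over the 4 arrays was used. Acsl1 had no such probe set in the annotation used here, and Acsl3 shared its set with Utp14b.

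Total RNA of whole spleen was hybridised to 1 Affymetrix whole-transcript array per mouse. All mice were of the 129Sv background and RBP-J flox/flox, so that both groups carried the floxed gene, which encodes a transcription factor of Notch signalling. Leukemic mice were Ren1dcre/cre, with cre recombinase at both copies of the renin gene Ren1d, which acts in cells that have turned on renin, and wild type mice were Ren1d+/+. The spleens of leukemic replicates 1 and 2 weighed 0.7 g and 0.47 g, at an age of 107 and 93 days. Those of wild type replicates 1 and 2 weighed 0.12 g and 0.16 g, at an age of 80 and 81 days. Leukemic replicate 2 was male and the other mice were female. The comparison asks how expression in the leukemic spleen differs from that in a spleen without the disease. Genotype, age and spleen weight differed together between the groups, and sex was not balanced, so their parts cannot be told apart. In whole spleen, fewer cells of a type and less RNA per cell cannot be told apart either.

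Cells build fatty acids from acetyl-CoA in the cytosol. Citrate leaves mitochondria and is split to acetyl-CoA, acetyl-CoA carboxylase makes malonyl-CoA, and fatty acid synthase joins these units into palmitate. Elongases and desaturases of the endoplasmic reticulum then lengthen the chain and insert double bonds. Glycerol-3-phosphate acyltransferases, acylglycerolphosphate acyltransferases, lipins and diacylglycerol acyltransferases act in that order to place the chains on glycerol, which yields phospholipid precursors and triglyceride. SREBP-1, encoded by Srebf1, and ChREBP, encoded by Mlxipl, are transcription factors known for driving many of these genes in liver and fat.

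Values below are the deposited log2 expression values. A difference is the mean of the leukemic arrays minus the mean of the wild type arrays, so that a difference of 1 is a doubling. Values of different probe sets are not compared with each other, with 2 exceptions. Dim genes are set against the range of hepatocyte genes, and marker values are summed within an array. Differences were tested with limma across all 19297 genes, and genes with a Benjamini-Hochberg adjusted p under 0.05 are said to have risen or fallen. The floxed gene, Rbpj, had values of 9.78 and 9.18 in leukemic spleens, against 9.99 and 9.74 in wild type spleens, and did not pass (difference -0.38, SE 0.22). The position of its probes relative to the floxed part was not known here, so this value does not check the deletion. Of 9 measured markers of precursor B cells 7 rose, with log2 summed levels of 14.51 and 14.49 in leukemic spleens, against 13.11 and 12.86 in wild type spleens. Of 6 T cell markers 5 fell and of 6 dendritic cell markers 6 fell. Wild type replicate 2 carried exocrine pancreas transcripts, at a log2 summed level of 14.71 over 6 genes, against 9.34 to 9.38 in the other arrays.

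Elovl6, Gpat3 and Gpam rose in leukemic spleen and Elovl7 fell. Elovl6 lengthens palmitate towards stearate. Gpat3 and Gpam encode glycerol-3-phosphate acyltransferases of the endoplasmic reticulum and of the mitochondrial outer membrane, which start glycerolipid synthesis. Elovl7 is an elongase of long saturated chains. These were 3 rises (8.57%) and 1 fall (2.86%) among 35 genes. Over all 19297 genes tested 2.46% passed, of which 1.43% rose (276 genes) and 1.03% fell (199 genes). After median centring the split over all genes was 350 higher and 147 lower, and the 4 calls here were kept.

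Elovl6 (probe set 10495993) had values of 11.30 and 11.23 in leukemic spleens, against 9.01 and 9.04 in wild type spleens. Its difference was 2.24 (SE 0.13, limma adjusted p = 0.0014), or 4.73-fold. Both leukemic mice thus stood more than 2 log2 units above both wild type mice. Gpat3 (probe set 10523547) had values of 10.16 and 10.46 in leukemic spleens, against 7.93 and 7.94 in wild type spleens. Its difference was 2.37 (SE 0.16, limma adjusted p = 0.0020), or 5.18-fold. The leukemic mice were both far above the wild type mice, and differed more from each other than the wild type mice did. Gpam (probe set 10468533) had values of 10.58 and 10.38 in leukemic spleens, against 8.42 and 8.21 in wild type spleens. Its difference was 2.16 (SE 0.16, limma adjusted p = 0.0023), or 4.48-fold. Ranked by difference over all 19297 genes, Gpat3 was at place 29, Elovl6 at place 31 and Gpam at place 34 from the highest.

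Elovl7 (probe set 10407072) had values of 6.45 and 6.48 in leukemic spleens, against 7.76 and 7.75 in wild type spleens. The measured difference was -1.29 (SE 0.13, limma adjusted p = 0.011). The groups did not overlap, and the mice of a group had nearly equal values. The leukemic values lay inside the range of 5.32 to 7.58 spanned by 6 hepatocyte genes on these arrays. Apoa1 alone set the upper end of that range, and the other hepatocyte genes reached at most 6.47, close to the leukemic Elovl7 values. A signal above background is thus not shown there, and the size of the fall is not settled by these values.

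**Figure D1:**
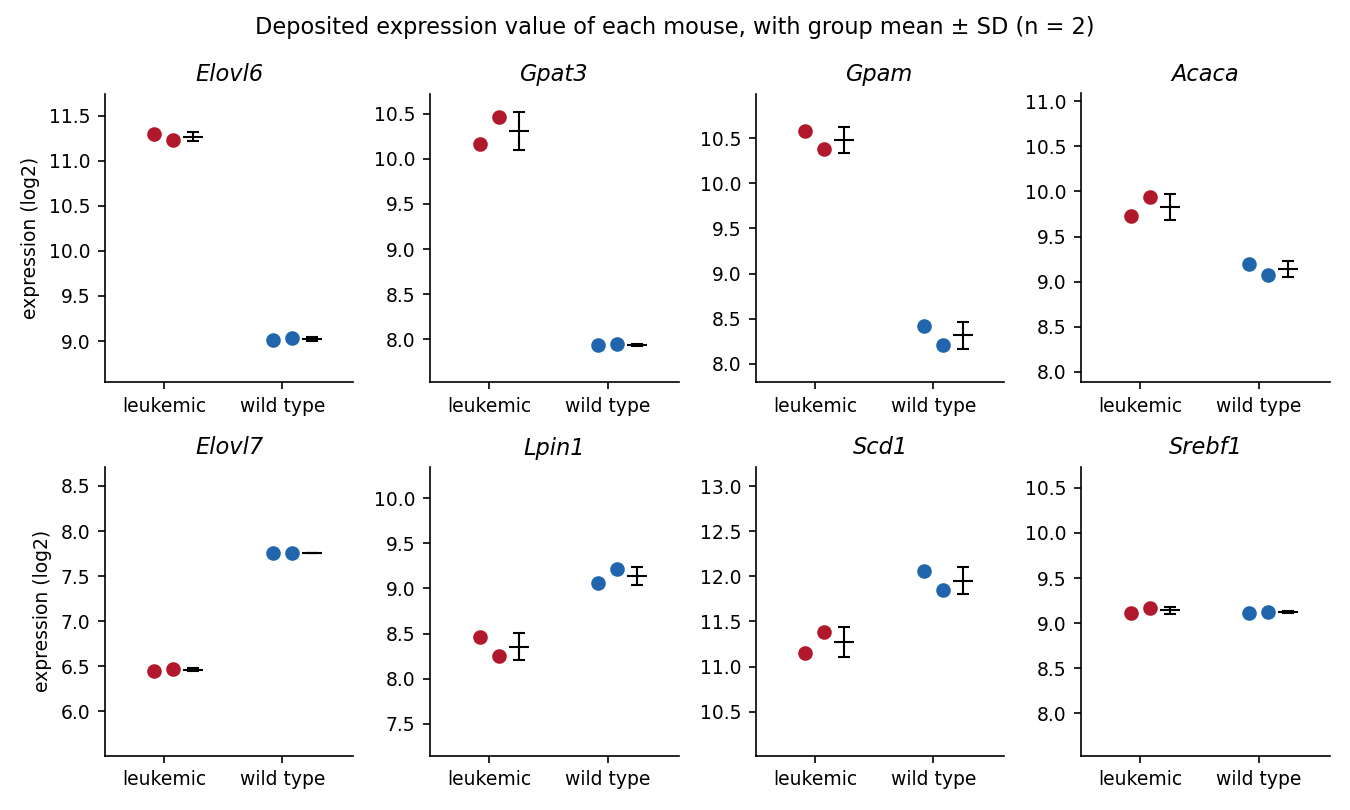
Deposited log2 expression of 8 genes, with a point for each leukemic mouse (red, left) and wild type mouse (blue, right) and a bar for the group mean ± SD (n = 2); every panel spans the same number of log2 units. Elovl6, Gpat3 and Gpam stood about 2 log2 units higher in both leukemic mice, Elovl7 lay lower in both, and Srebf1 lay between 9.11 and 9.17 in all 4.

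The sizes of these 4 differences moved little with single mice. With each mouse left out in turn, the difference ranged from 2.21 to 2.28 for Elovl6, from 2.22 to 2.52 for Gpat3, from 2.06 to 2.27 for Gpam and from -1.31 to -1.28, as measured, for Elovl7. The adjusted p values also depend on how limma estimated the spread. With a wild type mouse left out, the prior had 2.79 degrees of freedom. With a leukemic mouse left out it was infinite, so that every gene was given the same SE of 0.30 and no spread of its own. The calls of fits without a wild type mouse are therefore not comparable with those of fits without a leukemic mouse. Both fits without a wild type mouse had the same prior and the same SE for each gene. Why their calls differed was not tested. Without wild type replicate 2, the array with pancreas transcripts, limma called 0 of all 19297 genes, with 3142 at an unadjusted p under 0.05, and the adjusted p values were 0.12 for Elovl6, 0.14 for Gpat3, 0.14 for Gpam and 0.15 for Elovl7. Without wild type replicate 1, Elovl6 was called (adjusted p = 0.046) and the other 3 were not (0.071 for Gpat3, 0.062 for Gpam and 0.11 for Elovl7). With either leukemic mouse left out, and the same SE for every gene, all 4 were called. The 3 rises had the direction of most precursor B cell markers described above, which any gene called higher shares. The part of cell content in them was not tested. Dntt, a marker of that list that did not pass, had values of 6.51 and 8.05 in leukemic spleens, against 6.46 and 6.54 in wild type spleens. Cd79a, a chain of the B cell receptor complex found at precursor and mature stages, had values of 12.49 and 12.49 in leukemic spleens, against 12.54 and 12.28 in wild type spleens.

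The bases before the start sites of these 4 genes are shown because the genes had the largest differences of the set while Srebf1 did not pass the test. They are taken from RefSeq (build GRCm38.p6), on the strand of the gene, 5′ to 3′, and cover the 250 bases before the listed start. Capitals mark matches to a CCAAT box (CCAAT) or a GC box (GGGCGG) on either strand. The Elovl6 window lay at chr3:129532136-129532385 on the plus strand, that of Gpat3 at chr5:100845979-100846228 on the plus strand, that of Gpam at chr19:55127239-55127488 on the minus strand and that of Elovl7 at chr13:108214154-108214403 on the plus strand.
Elovl6: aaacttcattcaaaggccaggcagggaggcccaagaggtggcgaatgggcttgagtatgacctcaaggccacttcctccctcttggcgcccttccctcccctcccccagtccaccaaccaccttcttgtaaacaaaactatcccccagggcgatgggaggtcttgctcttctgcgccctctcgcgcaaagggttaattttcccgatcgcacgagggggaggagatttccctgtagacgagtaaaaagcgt
Gpat3: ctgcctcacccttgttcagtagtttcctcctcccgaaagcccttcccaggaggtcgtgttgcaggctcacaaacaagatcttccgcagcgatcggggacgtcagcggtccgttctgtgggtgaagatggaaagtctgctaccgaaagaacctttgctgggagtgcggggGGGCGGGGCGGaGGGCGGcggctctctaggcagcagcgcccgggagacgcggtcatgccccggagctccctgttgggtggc
Gpam: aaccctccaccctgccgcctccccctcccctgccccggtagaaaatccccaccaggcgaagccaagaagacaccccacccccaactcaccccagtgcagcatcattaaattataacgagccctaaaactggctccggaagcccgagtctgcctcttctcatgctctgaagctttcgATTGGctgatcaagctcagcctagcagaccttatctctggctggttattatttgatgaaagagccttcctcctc
Elovl7: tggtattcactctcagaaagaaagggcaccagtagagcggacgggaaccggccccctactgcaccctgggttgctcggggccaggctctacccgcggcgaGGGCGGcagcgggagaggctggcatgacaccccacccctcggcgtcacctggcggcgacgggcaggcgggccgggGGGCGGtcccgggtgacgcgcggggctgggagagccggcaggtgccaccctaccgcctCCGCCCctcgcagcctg

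Windows of 31 of the 37 genes were in the table. Acsl1 and Acsl3 are among the 31 but were not measured, so shares set against measured genes below compare unlike sets. Both count among the matches of the CCAAT box and of the GC box. A sterol regulatory element (TCACNCCAC), a sequence that SREBP proteins bind, was searched on both strands and matched in 0 of the 4 windows printed. Only these letters were searched and matches are rare in any window, so this does not show that the 4 windows lack SREBP sites. The element matched in windows of 2 of the 31 genes, Mlxipl and the unmeasured Acsl1 (6.45%). Among 15161 measured genes with a window it matched in 185 (1.22%), and in 1.05% of all 32851 windows of the table. The CCAAT box matched in 33.8% and the GC box in 32.7% of all windows. The CCAAT box matched once in the Gpam window and in windows of 18 of 31 genes (58.1%), against 5904 of those measured genes (38.9%). The GC box matched 3 times in the Gpat3 window, where the first matches of the run overlap and the last stands apart, and 3 times in the Elovl7 window. It matched in windows of 21 of 31 genes (67.7%), against 7583 of those 15161 genes. The E-box CACGTG, a sequence bound by many basic helix-loop-helix factors, matched in windows of 5 of 31 genes (16.1%), against 8.17% of those measured genes and 6.02% of all windows. The Elovl6 window held none of these 4 motifs. A window at another listed start of Gpam held 1 GC box and none of the others.

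Genes that supply acetyl-CoA and NADPH did not pass the test (0 of 4). Slc25a1, the mitochondrial citrate carrier, had values of 10.14 and 9.94 in leukemic spleens, against 9.90 and 9.63 in wild type spleens. Acly, which splits citrate to acetyl-CoA, had 10.54 and 10.82 in leukemic spleens, against 10.37 and 10.28 in wild type spleens. Me1, the malic enzyme that makes NADPH, had 7.75 and 7.78 in leukemic spleens, against 7.61 and 7.32 in wild type spleens. In these 3 genes the leukemic arrays lay above the wild type arrays, with differences of 0.27 to 0.36. With a mouse left out the difference ranged from 0.14 to 0.41 for Slc25a1, from 0.22 to 0.49 for Acly and from 0.15 to 0.44 for Me1. A second Me1 probe set had a difference of 0.04 (SE 0.18) and overlapping arrays, all inside the range of the hepatocyte genes. Acss2, which makes acetyl-CoA from acetate, had the opposite order, with 8.37 and 8.07 in leukemic spleens against 8.53 and 8.68 in wild type spleens.

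Of the 3 genes of fatty acid synthesis 0 passed. Acaca, the cytosolic acetyl-CoA carboxylase, had values of 9.73 and 9.93 in leukemic spleens, against 9.20 and 9.08 in wild type spleens. Its difference of 0.69 (SE 0.15, limma adjusted p = 0.062) had a 95% interval of 0.34 to 1.04 before any adjustment for the number of genes. A second probe set of Acaca had 8.87 and 9.26 in leukemic spleens, against 8.35 and 8.12 in wild type spleens, a difference of 0.83 (SE 0.18). Both sets separated the groups in the same direction. Acaca was called with a robust variance prior (limma adjusted p = 0.041) and not in the fits that left out a mouse, and its adjusted p ranged from 0.028 to 0.38 over all alternatives. Fasn, fatty acid synthase, had 9.89 and 10.12 in leukemic spleens, against 9.57 and 9.78 in wild type spleens, a difference of 0.33 (SE 0.16, limma adjusted p = 0.30). Acacb, the carboxylase of the mitochondrial surface whose product restrains fatty acid oxidation, had overlapping values of 7.88 and 7.63 in leukemic spleens and 7.60 and 7.94 in wild type spleens.

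Besides Elovl6 and Elovl7, 5 further elongase genes were measured and 0 of them passed. Elovl1, which lengthens very long saturated chains, had values of 10.72 and 10.70 in leukemic spleens, against 10.85 and 10.76 in wild type spleens. Elovl5, an elongase of polyunsaturated chains, had overlapping values of 11.13 and 11.32 in leukemic spleens and 11.18 and 10.85 in wild type spleens. Elovl2, Elovl3 and Elovl4, taken from the list of other pathway genes, lay between 5.60 and 6.54 on all arrays, inside the range of the hepatocyte genes, and so are not shown to be above background. Of the other glycerol-3-phosphate acyltransferase genes 0 passed. Gpat4 had a difference of 0.21 (SE 0.14, limma adjusted p = 0.47), beside 2.37 for Gpat3 and 2.16 for Gpam. Gpat2 lay between 6.27 and 6.50 on all arrays, also inside the range of the hepatocyte genes.

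**Figure D2:**
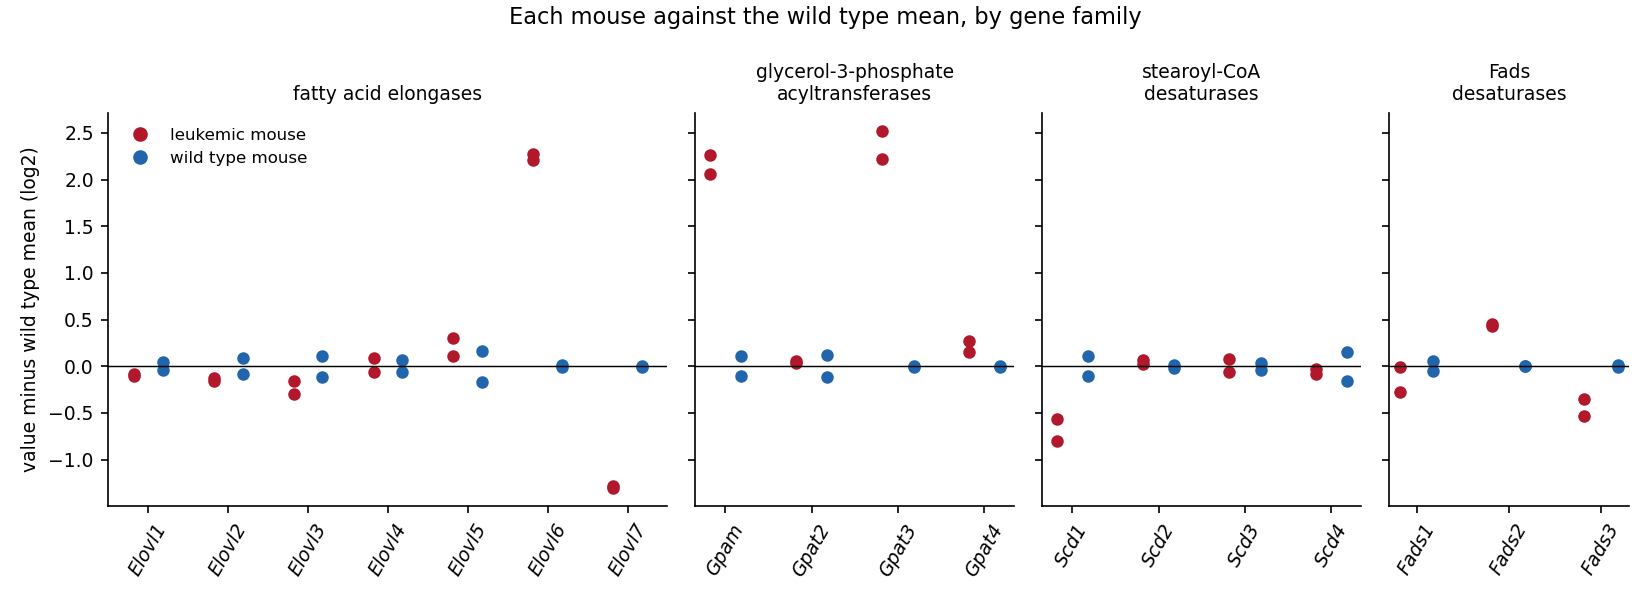
Value of each mouse minus the wild type mean (log2) for the measured elongases, glycerol-3-phosphate acyltransferases, stearoyl-CoA desaturases and Fads desaturases, with leukemic mice in red on the left of each gene and wild type mice in blue on the right. Elovl6, Gpam and Gpat3 lay 2.06 to 2.52 above the wild type mean in both leukemic mice and Elovl7 1.28 to 1.31 below it, while the leukemic mice lay between -0.80 and 0.45 in the other genes. Scd3 and Scd4, like Elovl2, Elovl3, Elovl4 and Gpat2, lay inside the range of the hepatocyte genes on all arrays and are not shown to be above background.

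Desaturase genes did not pass (0 of 5). Scd1, the stearoyl-CoA desaturase that makes oleate, had values of 11.16 and 11.39 in leukemic spleens, against 12.06 and 11.85 in wild type spleens. Its difference was -0.68 (SE 0.16, limma adjusted p = 0.073), with a 95% interval from -1.06 to -0.31 before adjustment. Scd2, a close paralogue, had 10.81 and 10.77 in leukemic spleens, against 10.73 and 10.76 in wild type spleens, a difference of 0.05 (95% interval -0.27 to 0.36). The Scd genes are similar in sequence, and how far their probes cross-hybridise was not tested. Fads2, which opens the synthesis of polyunsaturated fatty acids, had 9.74 and 9.76 in leukemic spleens, against 9.31 and 9.31 in wild type spleens, a difference of 0.44 (SE 0.13, limma adjusted p = 0.13). Fads3, a related desaturase, had 9.05 and 8.87 in leukemic spleens, against 9.41 and 9.39 in wild type spleens, a difference of -0.44 (SE 0.14, limma adjusted p = 0.14). Their groups did not overlap and the signs were opposite. Fads1, which acts after Fads2, had overlapping values of 10.48 and 10.21 in leukemic spleens and 10.43 and 10.54 in wild type spleens.

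Acsl4 and Acsl5 encode long-chain acyl-CoA synthetases, which activate fatty acids, and neither passed. Acsl4, whose enzyme prefers arachidonate, had 9.96 and 10.13 in leukemic spleens, against 9.81 and 9.55 in wild type spleens, a difference of 0.36 (SE 0.16, limma adjusted p = 0.26). Acsl5 had 11.30 and 11.10 in leukemic spleens, against 11.02 and 10.73 in wild type spleens, a difference of 0.33 (SE 0.16, limma adjusted p = 0.33). The leukemic arrays lay above the wild type arrays in both genes, and with a mouse left out the difference ranged from 0.23 to 0.49 for Acsl4 and from 0.18 to 0.47 for Acsl5. In the related synthetase genes Acsl6, Acsbg1, Acsf2 and Acsf3, taken from the list of other pathway genes, the arrays overlapped, with differences of 0.09, 0.04, -0.07 and 0.0023.

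After the glycerol-3-phosphate acyltransferase step, 0 of 10 measured genes of glycerolipid assembly passed, and 8 of the 10 had a negative difference. Over all genes 2.46% passed, and the median difference was -0.03, so negative differences were the more frequent there too. Agpat1 and Agpat2 add the next chain to make phosphatidic acid. Agpat1 had values of 9.53 and 9.44 in leukemic spleens, against 9.92 and 9.71 in wild type spleens. Agpat2 had 8.51 and 8.55 in leukemic spleens, against 9.26 and 8.89 in wild type spleens, a difference of -0.54 (SE 0.17, limma adjusted p = 0.14). Agpat5 had the opposite sign, with 9.45 and 9.28 in leukemic spleens against 9.0 and 8.66 in wild type spleens, a difference of 0.54 (SE 0.17, limma adjusted p = 0.14). The arrays of Agpat3 and Agpat4 overlapped, with differences of -0.21 and -0.16.

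Lpin1, a phosphatidate phosphatase that makes diacylglycerol, missed the threshold narrowly. It had values of 8.46 and 8.25 in leukemic spleens, against 9.07 and 9.21 in wild type spleens, a difference of -0.78 (SE 0.15, limma adjusted p = 0.051). Lpin1 was called with a robust prior or a trend in the prior, and its adjusted p ranged from 0.013 to 0.23 over all alternatives. Lpin2 had 9.76 and 9.90 in leukemic spleens, against 9.96 and 10.35 in wild type spleens. The Lpin3 arrays overlapped with a difference of 0.06, and all lay inside the range of the hepatocyte genes. Dgat1 and Dgat2 add the last chain of triglyceride. Dgat1 had 8.65 and 9.09 in leukemic spleens, against 9.26 and 9.26 in wild type spleens. Dgat2 had 7.99 and 8.35 in leukemic spleens, against 8.77 and 8.60 in wild type spleens, a difference of -0.52 (SE 0.17, limma adjusted p = 0.15). Leukemic replicate 1 was the lower of the leukemic pair in both Dgat genes.

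**Figure D3:**
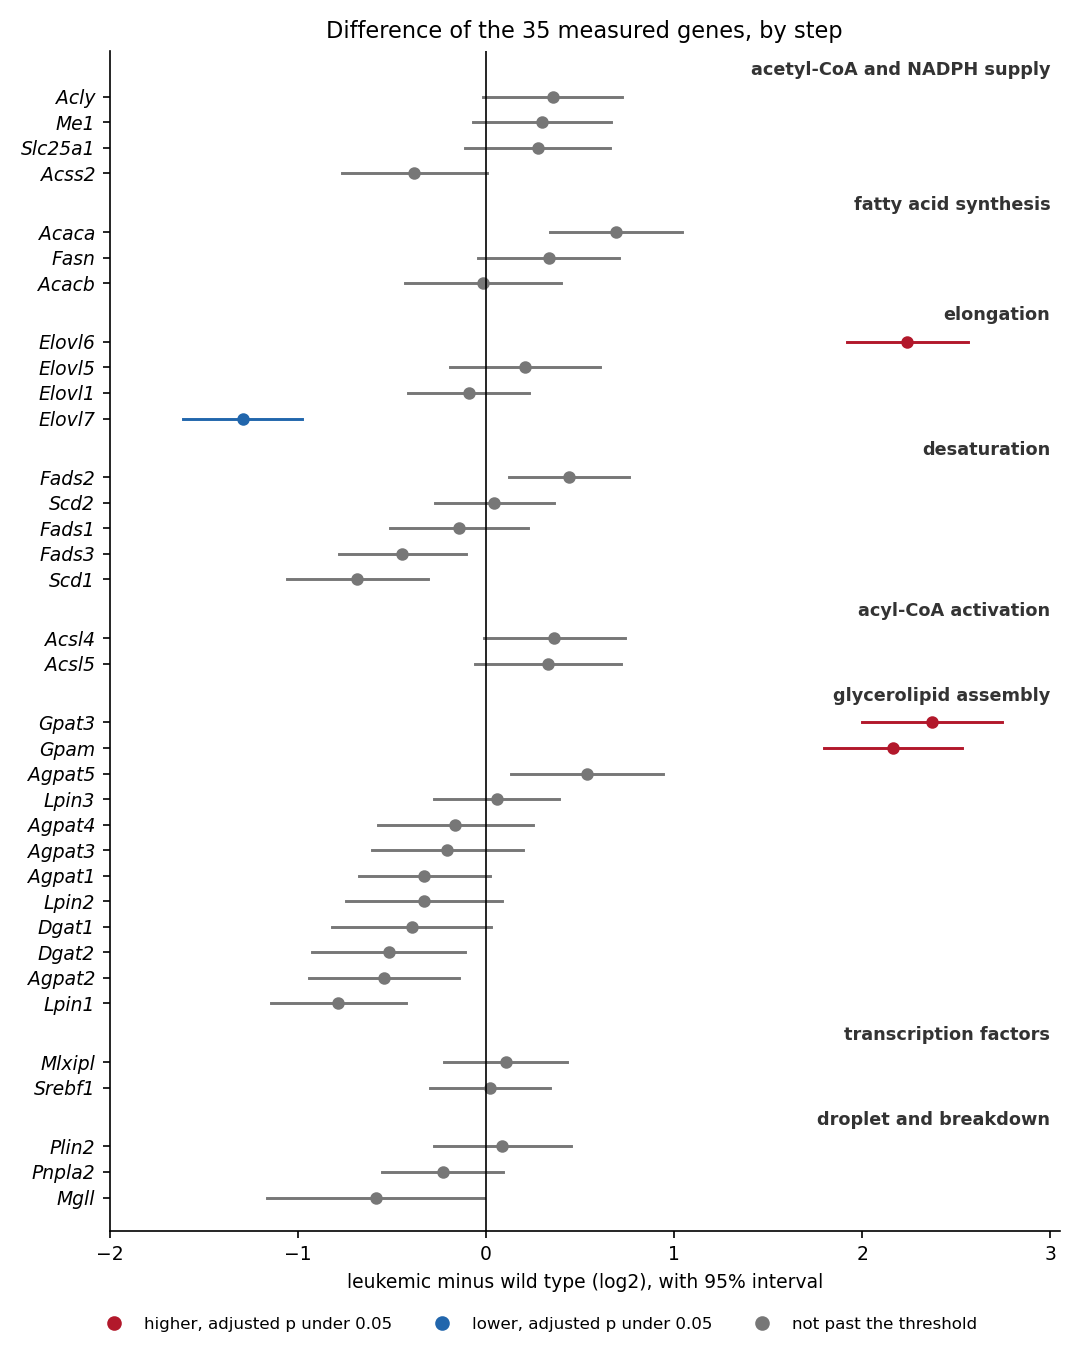
Difference of leukemic minus wild type spleens (log2) for the 35 measured genes, grouped by step, with the 95% interval of limma's moderated fit before adjustment; red marks genes called higher, blue genes called lower and grey genes that did not pass. The 31 genes in grey lay between -0.78 and 0.69, and 24 of them lay within 0.5 of 0.

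The transcription factor genes did not pass. Srebf1 had overlapping values of 9.12 and 9.17 in leukemic spleens and 9.11 and 9.13 in wild type spleens, a difference of 0.02 with a 95% interval of -0.30 to 0.34. Mlxipl had 7.13 and 7.08 in leukemic spleens, against 6.95 and 7.06 in wild type spleens, and all 4 values lay in the range of the hepatocyte genes. Neither array value shows processing or activity of the protein. Among genes of droplets and lipid breakdown, Plin2, the coat protein of lipid droplets, had overlapping values of 10.18 and 10.29 in leukemic spleens and 10.28 and 10.02 in wild type spleens. Pnpla2, the triglyceride lipase ATGL, had 9.55 and 9.54 in leukemic spleens, against 9.81 and 9.74 in wild type spleens, a difference of -0.23 (SE 0.13). Mgll, monoacylglycerol lipase, had 9.49 and 9.21 in leukemic spleens, against 9.59 and 10.28 in wild type spleens. Its difference was -0.59 (SE 0.24, limma adjusted p = 0.24), and was -0.93 without wild type replicate 1 and -0.24 without wild type replicate 2, the array with pancreas transcripts.

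Over the set, differences of both signs were about equally frequent. Of the 35 genes, 18 had a positive and 17 a negative difference, with a median of 0.02, against a median of -0.03 over all genes. Both leukemic arrays lay above both wild type arrays in 14 genes (40.0%) and below both in 13 (37.1%), while over all genes these shares were 23.0% and 26.2%. In 8 genes the arrays overlapped. Leaving out a mouse moved the difference by over 1.5 times, or turned its sign, in 23 of the 31 genes that did not pass. The other 8 were Acaca, Scd1, Fads2, Fads3, Agpat1, Agpat5, Lpin1 and Pnpla2.

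**Figure D4:**
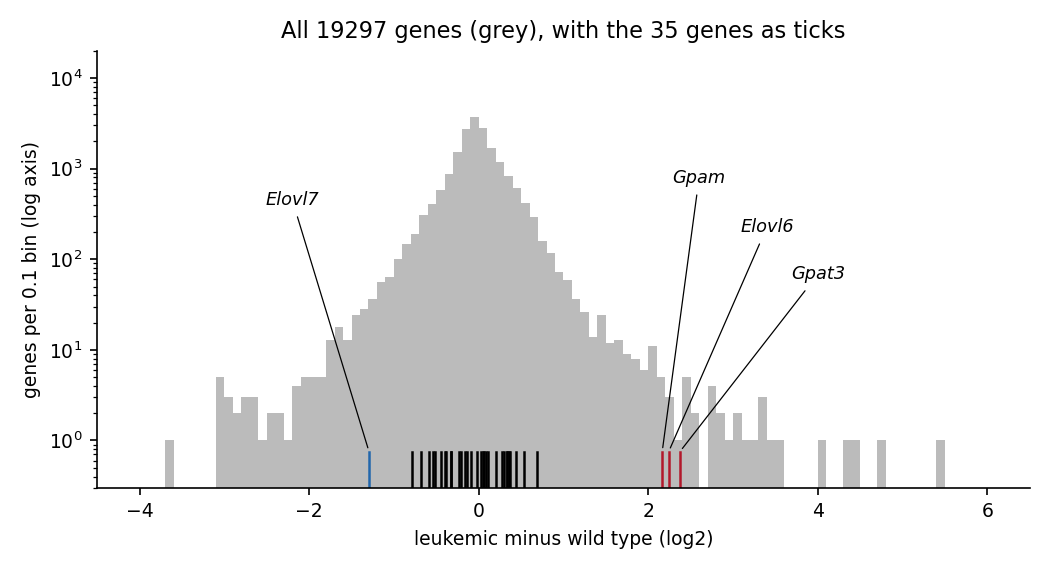
Histogram of the difference of leukemic minus wild type spleens (log2) for all 19297 genes in bins of 0.1 on a log axis, with the 35 genes as ticks below (red called higher, blue called lower, black not called). Gpat3, Elovl6 and Gpam lay at 2.37, 2.24 and 2.16 in the upper tail and Elovl7 at -1.29 in the lower. The other ticks lay between -0.78 and 0.69.

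Of 92 other measured genes of lipid metabolism, 2 rose and 0 fell. The 2 are 2.17% of the 92, close to the 2.46% of all genes that passed. Fabp5, a carrier of fatty acids in the cytosol, had values of 9.96 and 9.94 in leukemic spleens, against 8.95 and 8.84 in wild type spleens, a difference of 1.06 (SE 0.14, limma adjusted p = 0.021). It was the 1 of 16 genes of fatty acid oxidation and uptake to pass, and that list had a median difference of 0.10. Gpd1l, related to the glycerol-3-phosphate dehydrogenase Gpd1, had 10.74 and 11.03 in leukemic spleens, against 10.02 and 9.76 in wild type spleens, a difference of 1.0 (SE 0.17, limma adjusted p = 0.039). Gpd1 itself had the opposite sign and did not pass, with 7.38 and 7.88 in leukemic spleens against 8.19 and 7.96 in wild type spleens (difference -0.44, SE 0.20). Gpd1l was the 1 of 29 other glycerolipid and phospholipid genes to pass, beside a list median of -0.15. Of 19 other genes of the elongation cycle and synthesis, 0 passed (median 0.01). Of 16 other droplet and lipolysis genes, 0 passed (median -0.21), and the leukemic arrays lay below the wild type arrays in 9 of them (56.2%), against 26.2% of all genes. Of 12 regulators of SREBP and nuclear receptor signalling, 0 passed (median -0.09).

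Markers of other cell types were also read. Of 6 adipocyte markers 0 passed, with log2 summed levels of 10.02 and 9.83 in leukemic spleens, against 10.16 and 9.66 in wild type spleens. Adipoq and Lep lay between 5.70 and 6.84 on all arrays, inside the range of the hepatocyte genes, as did Cidec. Plin1, Retn and Fabp4 lay above that range on some arrays. Retn had 7.64 and 7.46 in leukemic spleens, against 8.11 and 7.36 in wild type spleens. Fabp4 had 8.58 and 8.30 in leukemic spleens, against 8.39 and 7.32 in wild type spleens. Of 7 macrophage markers 0 passed, with log2 summed levels of 13.57 and 13.56 in leukemic spleens, against 14.20 and 14.02 in wild type spleens. Both leukemic values lay below both wild type values, as they did in 13 of the 35 genes of the set (37.1%) and in 26.2% of all genes. The order was not particular to macrophages. Summed levels of T cell, dendritic cell, NK cell, erythroid, neutrophil and mature B cell markers were also lower in both leukemic spleens. Of 6 neutrophil markers 2 fell, with log2 summed levels of 11.79 and 12.79 in leukemic spleens, against 13.56 and 13.57 in wild type spleens. Of 5 mature B cell markers 3 fell, with log2 summed levels of 12.54 and 13.05 in leukemic spleens, against 14.17 and 13.86 in wild type spleens. The part of these cells in the lower values of lipid genes was not tested.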

How the data were processed

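The values deposited by the authors are on the log2 scale, with 1 value for each probe set on each array. RMA, R 2.15.0 and limma 3.12.1 are named in the submitters' processing notes, without order or settings in the sources used here. Array medians were 7.96 and 7.96 in leukemic spleens and 8.03 and 8.02 in wild type spleens. The labels give 2 mice per group and 1 array per mouse, and samples were grouped by title. The number of arrays limits the precision.

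Of 23309 probe sets, 20729 carried 1 gene symbol in the platform annotation, 1174 several and 1406 none. Symbols matched a GRCm38.p6 gene table with 0 changes. The test used lmFit and eBayes of limma 3.58.1 (R 4.3.3) on sets with 1 symbol, with no covariate and no filter. For 804 genes with several sets, the set of highest 4-array mean was kept after the fit, and p-values were adjusted by Benjamini-Hochberg over 19297 genes. Total degrees of freedom were 6.83. In 2 against 2 mice the smallest two-sided exact permutation p is 0.333, so no single gene can pass that test.

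The genes, lists and tests were chosen with earlier results of these data known. Of the pathway lists, called genes are named; every gene of the set is accounted for, with array values for called genes, for those whose groups do not overlap, and for the largest difference of a step otherwise. Log2 summed levels add the marker genes' linear values in each array. In simulated data for the same 19297 genes, 50 genes each were changed by 0.5, 1, 2 and 3 log2 units. Of these, 0%, 42%, 98% and 98% were called, so small changes can be missed. The data gave 475 calls, and with so many the adjusted threshold differs from that of the simulation, so these shares need not hold for the data. Alternatives covered normalization, a filter on dim genes, the variance prior, the choice of probe sets, the replicate number as a block and each mouse left out. Promoter windows came from RefSeq. Python 3.11.15 with numpy 2.4.6, pandas 2.3.3 and scipy 1.17.1 was used.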

Additional observations from a re-analysis of the deposited data

Results flagged for a closer look

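A probe set outside the comparison carried a difference. It is annotated to both Utp14b and Acsl3, an acyl-CoA synthetase gene, and had values of 8.36 and 8.74 in leukemic spleens, against 8.02 and 7.74 in wild type spleens. With all probe sets in the fit its difference was 0.67 (SE 0.19, limma adjusted p = 0.12), which did not pass. Which of the 2 genes carries the signal was not tested.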

How the results depend on the processing

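Elovl6, Gpat3, Gpam and Elovl7 kept their direction in all 12 alternatives and were called in the 8 that kept all 4 mice. Genes called numbered 475 (276 higher, 199 lower) as reported, 246 (157 and 89) after quantile normalization and 974 (501 and 473) with a robust variance prior. With the replicate number as a block they numbered 1693 (785 and 908), and 3 genes of the set were called lower. The numbers do not pair the mice (correlation of same-numbered deviations -0.09), and Acaca, Scd1 and Lpin1 were called only with the block or the robust prior, except that Lpin1 was also called with a trend in the prior, with the dimmest 33.3% of genes left out and with probe sets averaged. Genes of the set called lower then numbered 2 in those last 3 settings and 3 with the robust prior, against 1. With each mouse left out, which leaves a lone mouse assumed to vary like the others and, without a leukemic mouse, gives every gene the same SE, calls ranged from 0 to 1043 (0 to 450 higher, 0 to 593 lower), in the set from 0 to 3 higher and 0 to 1 lower, and the set's median from -0.016 (without wild type replicate 1) to 0.041 (without wild type replicate 2). The set's median was 0.087 after median centring and -0.0040 after quantile normalization, against 0.02. Some signs near 0 reversed, and the cause was not tested. They were those of Acacb with median centring (0.050) and quantile normalization (0.048), and of Scd2 (-0.0040) and Srebf1 (-0.013) with quantile normalization. With a mouse left out, Acacb ranged from -0.18 to 0.15, Agpat4 from -0.37 to 0.041, Lpin3 from -0.016 to 0.13, Srebf1 from -0.0045 to 0.049 and Plin2 from -0.040 to 0.21. Arrays carried no detection calls here, so dim genes were judged by the hepatocyte range alone. The upper end of that range rests on Apoa1, and the other hepatocyte genes reached at most 6.47. Mlxipl, Lpin3 and the second Me1 probe set lay above 6.47 on all arrays, so their place inside the range rests on Apoa1. Elovl4, Gpat2 and Adipoq lay above 6.47 on some arrays.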
